A study of Homo sapiens with 8 samples.

Results

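The transcripts that followed low-dose trametinib in the pancreatic cancer line PANC-1 are described here. Of 8178 measured genes, 4554 differed in the same direction in both matched pairs of libraries, 2833 of them higher with trametinib and 1721 lower. The table holds 62649 genes in all, and a gene was measured when it carried a RefSeq mRNA accession and had a mean of at least 10 TPM (a length-normalized level that sums to the same total in every library) over the 4 PANC-1 libraries. A gene was counted as a member when its log2(TPM + 1) differed the same way between trametinib and vehicle and between trametinib plus roseoflavin and roseoflavin alone. Direction alone does not show that trametinib changed a gene, and 44.3% of the measured genes went opposite ways. The direction was used to choose the members, and it is given for them as a description. The member nearest to the limit on the mean was SLC24A1 at 10.005 TPM, with differences of 0.02 and 0.03 between trametinib and its partner. NBEAL2 lay just outside at 9.993 TPM, with differences of 0.05 and 0.02.

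PANC-1 and the comparison line AsPC-1 are established human lines derived from pancreatic cancer, both labelled as genetically unmodified. RNA of each line was measured in 4 groups, treated for 24 h with vehicle, with 1 nM trametinib, with 10 µM roseoflavin, or with both, after 3 days of growth in methylcellulose, in which cells form spheroids. Each group had 1 library, so there are 8 libraries in all and no replicate of any group. Trametinib inhibits MEK1 and MEK2, and roseoflavin is an analog of riboflavin, the vitamin from which cells make flavin cofactors. The only replication of the trametinib contrast in PANC-1 comes from its 2 pairs, which share no library but differ in roseoflavin.

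MEK1 and MEK2 are the kinases that phosphorylate ERK1 and ERK2, the last step of the RAS-RAF-MEK-ERK cascade, which is active in most pancreatic cancers. Active ERK phosphorylates transcription factors of the ETS and AP-1 families, and their targets include both early response genes such as EGR1 and the cascade's own inhibitors. Among these inhibitors, DUSP6 removes the activating phosphates from ERK, and the Sprouty proteins such as SPRY4 restrain signalling upstream. Transcripts of these feedback genes have short half-lives and are widely used as a readout of ERK activity.

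The mesenchymal transcript of VIM (vimentin) was at 3132 to 3391 TPM in the 4 PANC-1 libraries, whereas FN1 (fibronectin) was at 0.533 TPM or less. CEACAM5, abundant in AsPC-1, was at 0 in every PANC-1 library. The summed level of 8 genes typical of AsPC-1 was 116.3 to 116.4 TPM without and 113.3 to 114.7 TPM with trametinib. Most of it was AGR2 (86.7 to 96.1 TPM), followed by EPCAM (14.5 to 16.8 TPM) and S100P (3.35 to 10.1 TPM). Of 14 markers of immune and stromal cells, CD3E, PDPN and DCN were at 0 in all 4 libraries. Their summed level, mostly CD68, was 131.2 to 144.9 TPM without and 126.3 to 143.7 TPM with trametinib. The share of TPM in mitochondrially encoded genes was 25.6% with vehicle and 24.8% with trametinib, and 23.7% and 22.8% in the pair with roseoflavin. TPM values sum to the same total in every library, so the depth is unknown and no counting error can be given. In bulk RNA, fewer expressing cells and less RNA per cell cannot be told apart.

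Promoters of the 3 response markers are shown because they are the regulatory regions of the genes on which the trametinib response is read. Each runs from 250 bases before the annotated start of the gene to 50 after it, on the gene's own strand, from RefSeq on GRCh38.p14. Capitals mark CArG boxes, the binding motif of serum response factor, which recruits the ETS factor ELK1 to early response genes.
EGR1, chr5:138465229-138465528, plus strand: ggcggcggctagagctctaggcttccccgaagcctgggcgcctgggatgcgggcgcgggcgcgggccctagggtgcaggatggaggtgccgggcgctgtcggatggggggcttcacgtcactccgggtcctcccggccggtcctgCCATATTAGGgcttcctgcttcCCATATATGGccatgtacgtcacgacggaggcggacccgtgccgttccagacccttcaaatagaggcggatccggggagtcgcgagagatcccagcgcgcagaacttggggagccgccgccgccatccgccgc
DUSP6, chr12:89352452-89352751, minus strand: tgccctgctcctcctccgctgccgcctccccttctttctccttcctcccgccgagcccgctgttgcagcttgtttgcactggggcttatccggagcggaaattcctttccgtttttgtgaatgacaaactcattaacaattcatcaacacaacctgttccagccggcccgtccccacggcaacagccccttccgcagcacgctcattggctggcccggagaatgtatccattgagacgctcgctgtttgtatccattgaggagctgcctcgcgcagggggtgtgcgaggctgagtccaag
SPRY4, chr5:142324198-142324497, minus strand: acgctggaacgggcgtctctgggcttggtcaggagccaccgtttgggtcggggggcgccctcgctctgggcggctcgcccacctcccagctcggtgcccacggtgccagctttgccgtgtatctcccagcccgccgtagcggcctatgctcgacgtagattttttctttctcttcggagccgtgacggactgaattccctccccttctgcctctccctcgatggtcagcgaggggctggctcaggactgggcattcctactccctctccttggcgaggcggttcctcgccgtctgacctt

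The EGR1 promoter held 2 CArG boxes, at 105 to 96 and at 83 to 74 bases before the start. The DUSP6 and SPRY4 windows held none of the 6 motifs searched on both strands, which were CCGGAAGT (ETS), TGANTCA (AP-1), TGACGTCA (CRE), CACGTG (E-box), GCGTGGGCG (EGR) and the CArG box by name. A CArG box was found in 1.29% of 27305 promoters, in 1.09% of those of the 6769 measured genes with a promoter sequence, in 1.12% of 1427 promoters of genes lower in both pairs and in 0.774% of 2326 promoters of genes higher in both. The ETS motif was found in 9.88% of promoters of the lower and 9.85% of the higher genes, beside 10.5% of the measured genes. The AP-1 motif was found in 3.36% and 3.31%, beside 3.74%. The CRE motif was found in 2.87% of the lower and 3.27% of the higher genes, beside 3.38%. For the E-box the shares were 10.9% and 11.7%, beside 11%, and for the EGR motif 0.981% and 1.07%, beside 1.29%. For ETS and AP-1 the lower and higher genes thus had nearly the same share. The CArG box shares rest on only 16 promoters of lower and 18 of higher genes, and their difference was not tested.

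The differences were small. None of the 8178 genes differed 2-fold in either PANC-1 pair. The standard deviation over genes of the difference in log2(TPM + 1), called the change from here on, was 0.0837 without and 0.0889 with roseoflavin, beside 0.166 and 0.128 in AsPC-1. A total of 34.6% of the measured genes were higher in both pairs, 21% were lower in both, and 44.3% went opposite ways. The median change was 0.01 and 0.02, and the split depended on the scaling. With quantile normalization 2175 genes were higher and 2262 lower, and with TPM rescaled without the mitochondrially encoded genes 2118 were higher and 2373 lower. Across the 8178 genes, Pearson's r between the pairs was 0.137 in PANC-1 and 0.359 in AsPC-1, as a description over genes that share their libraries.

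Larger changes went the same way more often than small ones. In 363 genes both changes were at least 0.1 in size and in the same direction, 224 higher (2.74% of the measured genes) and 139 lower (1.7%), whereas 165 genes had changes of that size in opposite directions. At 0.2 the numbers were 28 in the same and 7 in opposite directions, with 14 higher and 14 lower.

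No gene passed the test over all genes. With limma on 17417 genes, 0 (0%) had a Benjamini-Hochberg adjusted p under 0.05, and 1082 (6.21%) had an unadjusted p under 0.05. The 5 genes with the smallest p were MIR6717, RPL41P5, MIR7108, MIR6791 and MIR6832, all with an adjusted p of 0.39. They are 4 microRNA genes and a pseudogene of a ribosomal protein. When the fit was restricted to the 8178 measured RefSeq genes, 105 (1.28%) passed, 66 higher (0.807%) and 39 lower (0.477%). This count depended on the fit, which has 1 residual degree of freedom and in effect gave all genes of like level the same spread. Only 7 genes passed after quantile normalization, none passed without the roseoflavin term, and none when the 8 libraries of both lines were fitted together, with or without any 1 of the 4 PANC-1 libraries. The sizes of the changes below are therefore given with both pairs, and "higher" and "lower" describe the libraries.

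DUSP6 was, among the measured genes, the one with the largest decrease shared by both pairs. In the order used from here on, it was at 18.6 TPM with vehicle and 13.98 TPM with trametinib, and at 17.5 TPM with roseoflavin and 12.5 TPM with both. Both trametinib libraries were below both others, as in 794 genes (9.71% of those measured), while in 1402 genes (17.1%) both were above. The change was -0.39 and -0.45, or 24.9% and 28.3% less TPM, with a mean of -0.42 over the 2 pairs. The limma SE of this mean was 0.0523 in the fit over all genes and 0.0619 in the RefSeq fit. The adjusted p of DUSP6 from limma was 0.537 over all genes and 1.12e-07 over the RefSeq genes.

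EGR1, the early growth response factor, was at 37.2 TPM with vehicle and 30.3 TPM with trametinib. It was at 27.9 TPM with roseoflavin and 23.0 TPM with both. Trametinib was lower within each pair (-0.29 and -0.27), but roseoflavin alone was below trametinib alone, so the groups overlap when the pairs are ignored. The adjusted p from limma was 0.62 over all genes and 8.99e-05 over the RefSeq genes.

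SPRY4 was at 65.4 TPM with vehicle and 55.2 TPM with trametinib, and at 61.2 TPM and 52.3 TPM in the pair with roseoflavin. Both trametinib libraries lay below the other two, with changes of -0.24 and -0.22. The adjusted p from limma was 0.62 over all genes and 0.000179 over the RefSeq genes. After quantile normalization, which was added after the data were seen, DUSP6 (0.0212) and EGR1 (0.0438) stayed under 0.05 in the RefSeq fit and SPRY4 (0.0571) did not.

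**Figure D1:**
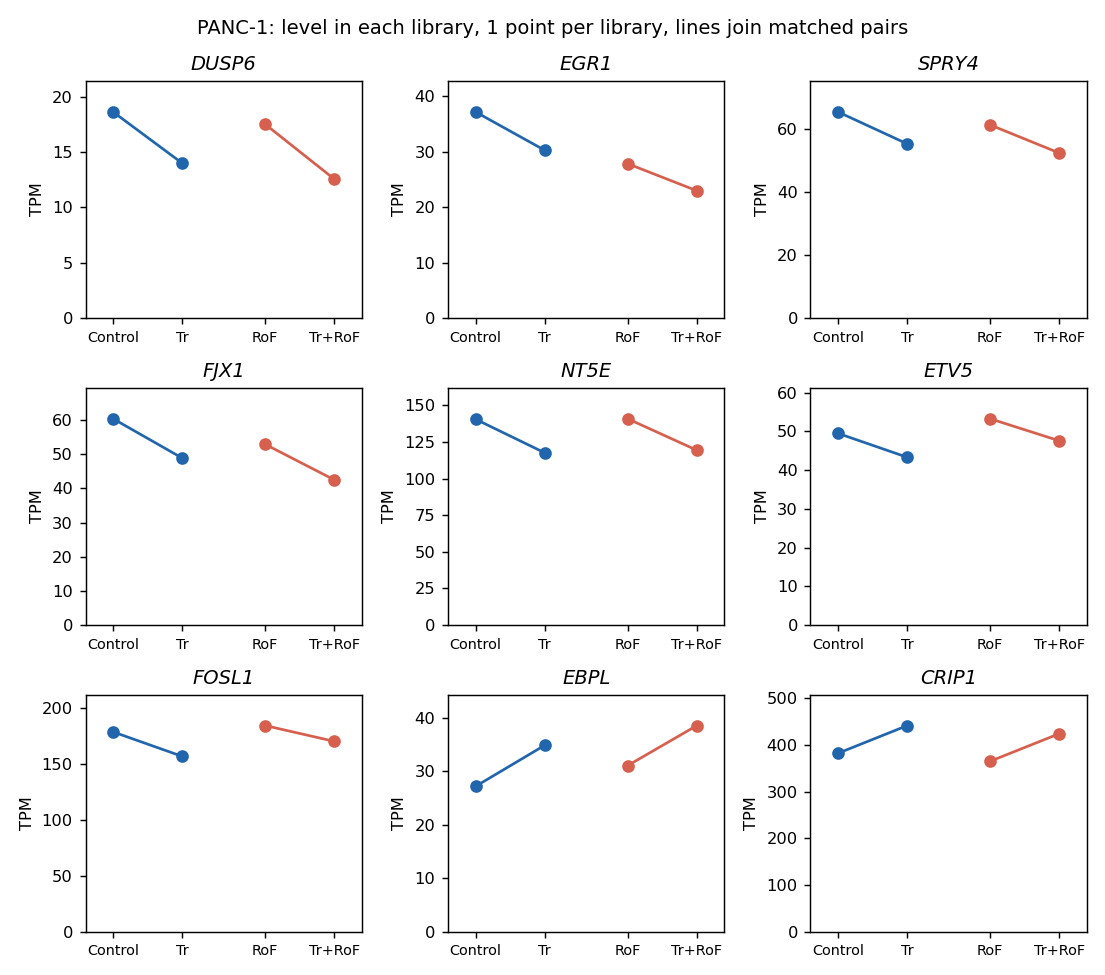
TPM of 9 genes in the 4 PANC-1 libraries, 1 point per library, with lines joining each trametinib library to its partner without trametinib (blue without, red with roseoflavin) and a vertical axis from 0. DUSP6 goes from 18.6 to 13.98 and from 17.5 to 12.5 TPM, and EBPL and CRIP1 are higher with trametinib in both pairs.

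The 4 lists of genes downstream of ERK leaned to lower levels. Of 57 listed genes 44 were measured: 30 (68.2%) were lower in both pairs, 4 (9.09%) were higher in both and 10 went opposite ways, beside 21% lower and 34.6% higher among all measured genes. The median change of the 44 was -0.07 and -0.05. With quantile normalization 32 were lower and 2 higher, and without the mitochondrially encoded genes 33 were lower and 2 higher. Of the 44, 6 passed in the RefSeq fit, DUSP6, SPRY4, EGR1, ETV5 and FOSL1 lower and ID3 higher, beside 0.477% lower and 0.807% higher among all 8178 genes.

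Feedback regulators gave the largest median of the 4 lists, -0.14 and -0.08 over 9 measured genes. DUSP6, DUSP5, DUSP7, SPRY1, SPRY2, SPRY4 and ERRFI1 were lower in both pairs. DUSP5, another phosphatase that acts on ERK, was at 20.2 and 16.9 TPM in the pair without roseoflavin and at 23.4 and 22.4 TPM in the pair with it. Its decrease was thus mostly in the first pair (-0.25 and -0.06). SPRY1 was at 22.5 and 20.3 TPM and at 20.4 and 18.4 TPM, with -0.14 in each pair. SPRY2 was at 38.2 and 37.6 TPM and at 39.3 and 34.9 TPM, and its decrease lay in the pair with roseoflavin. SPRED1, an inhibitor of RAF activation, was the gene of this list that was higher in both (0.01 and 0.14).

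Among the ETS and early growth response factors, 5 of 9 measured genes were lower in both pairs and 0 higher. ETV5, an ETS factor of the PEA3 group, was at 49.5 and 43.3 TPM without roseoflavin and at 53.2 and 47.6 TPM with it (-0.19 and -0.16). Both trametinib libraries lay below both others. ELK3 followed with -0.12 and -0.18, and ETV4 with -0.13 and -0.01. ETS1, ETS2, ELK4 and SRF went opposite ways in the pairs, and none of them differed by more than 0.1 in either pair.

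AP-1 transcription factors are dimers of FOS and JUN family proteins. Of the 6 measured genes of this list 3 were lower in both pairs and 1 higher (50% and 16.7%). Among all measured genes the shares were 21% and 34.6%. The higher gene was ATF3, and FOSL2 and JUNB went opposite ways. FOSL1, the FOS family member most tied to ERK in epithelial tumours, was at 178 and 156 TPM and at 184 and 170 TPM (-0.19 and -0.11). JUN was at 143 and 135 TPM and at 133 and 121 TPM (-0.08 and -0.13), and JUND was lower by 0.04 and 0.07. BATF3, FOS, FOSB and MAFF were not among the measured genes, and values of BATF3 and MAFF are not reported here. FOS itself had a mean of 8.37 TPM and was not a member. It was at 11.3 TPM with vehicle, 7.97 with trametinib, 8.38 with roseoflavin and 5.86 with both, which is -0.45 in each pair. FOSB, of the same family, was at 3.23, 1.68, 1.96 and 1.07 TPM in the same order.

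Of the 20 other early and delayed response genes, 15 were lower in both pairs and 2 higher. The median was -0.06 and -0.04. TRIB1, a pseudokinase, was at 25.1 and 21.9 TPM and at 22.1 and 20.2 TPM (-0.19 and -0.13). The G1 cyclin CCND1 was at 144 and 136 TPM and at 145 and 136 TPM, both trametinib libraries lying below both others. MYC was at 57.3 and 53.7 TPM and at 56.0 and 55.0 TPM. Apart from TRIB1, each of the 15 was lower by less than 0.1 in at least 1 pair. ID3, a dominant-negative helix-loop-helix factor, was higher (0.06 and 0.24).

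**Figure D2:**
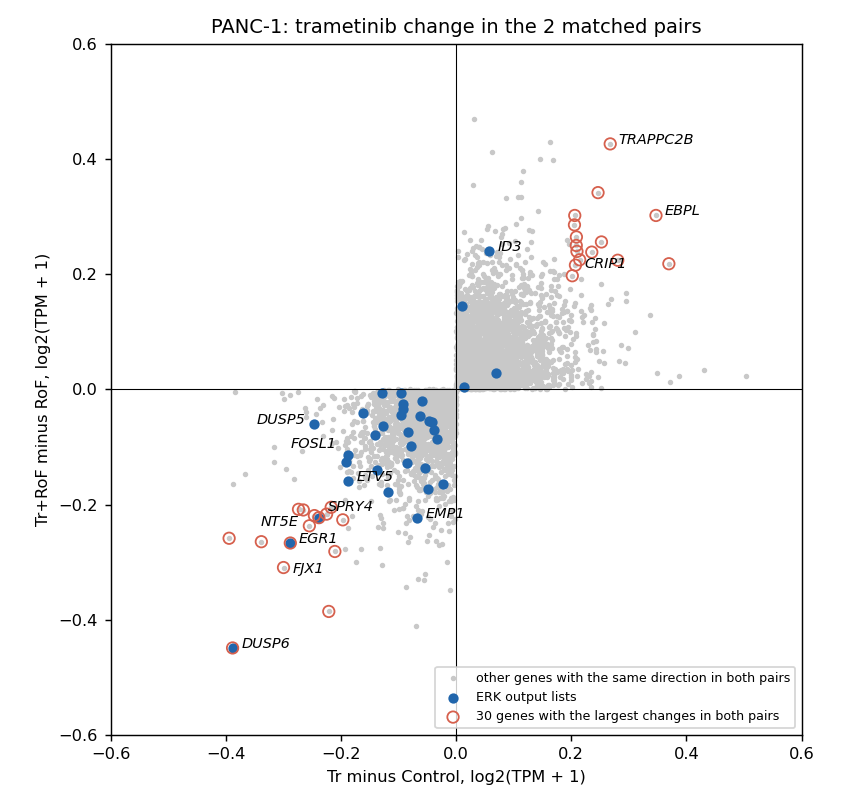
Trametinib change in PANC-1 without roseoflavin (horizontal axis) and with it (vertical axis), both in log2(TPM + 1), for each gene with the same direction in both pairs. ERK output genes are blue, and red circles mark the 30 named genes; 30 of the blue points lie in the lower left corner and 4 in the upper right.

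Genes outside the ERK lists also stood among the 15 largest decreases. FJX1, a secreted glycoprotein, was at 60.4 and 48.9 TPM and at 52.9 and 42.5 TPM (-0.30 and -0.31, limma adjusted p 0.537 over all genes and 2.05e-07 over the RefSeq genes). NT5E, which encodes the ecto-enzyme CD73 that makes adenosine, was at 141 and 118 TPM and at 141 and 119 TPM (-0.25 and -0.24). Roseoflavin alone left NT5E at the vehicle level, so the 2 pairs had almost the same values. C15orf48 was at 98.0 and 80.9 TPM and at 92.7 and 80.1 TPM. PTX3, a secreted pattern recognition protein, was at 26.2 and 22.3 TPM and at 28.0 and 21.2 TPM. SNAI1, a repressor of epithelial genes, was at 27.6 and 23.7 TPM and at 29.5 and 24.1 TPM. IGFBP3, a binder of insulin-like growth factors, was at 11.2 and 9.67 TPM and at 13.0 and 10.95 TPM. The others were DCTN6, SMCO4, CLEC3B, FAM111B, NOXA1 and ENDOG, each at a mean under 20 TPM, with EGR1, DUSP6 and SPRY4 completing the 15.

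The 15 largest increases were of similar size. EBPL, a protein related to a sterol isomerase, was at 27.2 TPM with vehicle, 34.9 with trametinib, 31.1 with roseoflavin and 38.5 with both (0.35 and 0.30, limma adjusted p 0.548 over all genes and 5.03e-07 over the RefSeq genes). Both trametinib libraries were above both others. CRIP1, a LIM domain protein, was the most abundant of the 15, at 382 and 442 TPM and at 365 and 424 TPM (0.21 and 0.22). H2BC4, a replication-dependent histone, was at 34.5 and 41.3 TPM and at 29.5 and 35.4 TPM. LSM7, an RNA-binding protein of the spliceosome, was at 30.5 and 37.3 TPM and at 33.5 and 39.3 TPM. NAA38, CENPM, NUDT1, PTGDS, IPP, CDC42EP2, NFATC3, ALDH3B1 and BLOC1S4 were higher by 0.21 to 0.37 in each pair. TRAPPC2B and PTGES3L-AARSD1 complete the list and are uncertain, the first because TRAPPC2 is a near-identical copy and the second because it is a readthrough of 2 genes.

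Short transcripts made up most of the genes that passed. The median length of the longest coding transcript was 1253.5 nt for the 66 higher and 1686 nt for the 39 lower genes, beside 3249 nt for all. When the genes were split by length into 5 groups of equal number, 68 genes of the shortest group passed (4.16%) and 4 of the longest (0.245%). The standard deviation of the difference between the pairs over genes was 0.142 in the shortest and 0.0851 in the longest group, so short genes were also noisier. The median change in the shortest group was 0.03 without and 0.001 with roseoflavin, and in the longest 0.006 and 0.04. With genes of at least 2 kb only, 37 passed, DUSP6, FJX1, NT5E, EGR1 and SPRY4 first among them.

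**Figure D3:**
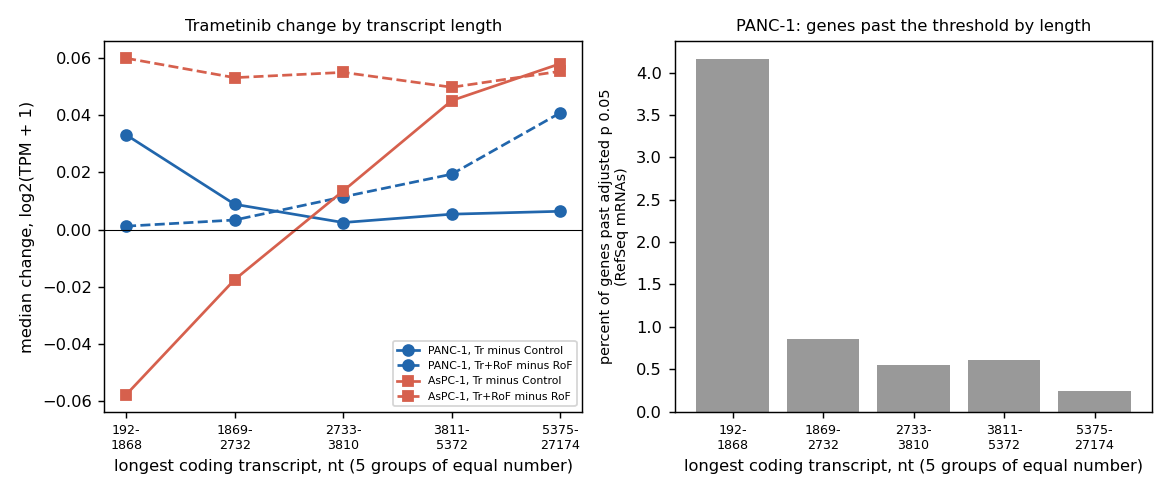
Left, the median trametinib change in log2(TPM + 1) in 5 groups of genes by the length of the longest coding transcript, for the 2 pairs of each line; right, the percent of genes in each group that passed in PANC-1. The percent is 4.16 in the shortest and 0.245 in the longest group.

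Outside the ERK outputs, most lists differed little. The core of the cascade was at similar levels: 11 of 16 measured genes went opposite ways, 2 were higher and 3 lower. MAP2K1, which encodes MEK1, was lower in both pairs at 50.9 and 45.5 TPM and at 48.9 and 43.9 TPM (-0.16 and -0.15). The receptor tyrosine kinases gave 3 genes higher and 1 lower of 8, and 1 of each with either other scaling. None of the 8 EGF family ligands reached the limit on the mean.

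Of 12 G1 genes 5 were higher in both pairs and 5 lower (41.7% each, beside 34.6% and 21% of all measured genes). The lower ones included CCND1, CCND3, CCNE1 and E2F1. The higher ones were all 4 measured CDK inhibitors (CDKN1A, CDKN1B, CDKN1C and CDKN2C) and CDK6. With either other scaling 4 of the 12 were higher and 5 lower. CCNE1 was at 24.3 and 23.2 TPM and at 23.7 and 18.7 TPM, so its decrease lay in the roseoflavin pair. CDKN2C was at 52.2 and 54.6 TPM and at 41.1 and 46.8 TPM, and CDKN1A differed by 0.02 and 0.04. In the S phase list 10 of 28 genes were lower and 6 higher, with medians of -0.01 and -0.02, and with either other scaling 14 were lower and 5 higher. In the mitosis list 4 were lower and 4 higher of 24, with quantile normalization 7 and 4, and without the mitochondrially encoded genes 8 and 3. Ribosome biogenesis genes were lower in 10 and higher in 6 of 24 cases, with quantile normalization in 12 and 3, and without the mitochondrially encoded genes in 13 and 4.

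Several lists held more higher than lower genes, as did all measured genes (34.6% higher and 21% lower). Of 23 nuclear-encoded respiratory chain genes 15 were higher in both pairs and 1 lower (65.2% and 4.35%), with medians of 0.06 and 0.02. Cytosolic ribosomal protein genes were higher in 15 and lower in 2 of 30 (50% and 6.67%), with medians of 0.06 and 0.005. Without the mitochondrially encoded genes these counts were 10 higher and 2 lower for the respiratory chain, and 10 and 5 for the ribosomal proteins. Both lists hold mostly short transcripts, with median lengths of 1268 nt (respiratory chain) and 1270.5 nt (ribosomal proteins). In the shortest group by length 33.8% of genes were higher and 18.8% lower, with median changes of 0.03 and 0.001. How far length accounts for the changes of these lists was not tested. Interferon response genes were higher in 8 and lower in 2 of 11 (72.7% and 18.2%). BST2 (tetherin) was at 21.3 and 24.1 TPM and at 24.4 and 32.4 TPM, and IFI6 at 87.2 and 99.5 TPM and at 94.4 and 105 TPM. Their longest coding transcripts are 1019 and 841 nt, among the shortest group described above.

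Sterol synthesis genes were higher in 11 and lower in 2 of 22 (50% and 9.09%, beside 34.6% and 21% over all genes). Their medians were 0.005 and 0.07. Without the mitochondrially encoded genes 9 were higher and 3 lower. INSIG1, which retains the sterol sensor in the endoplasmic reticulum, was at 53.2 and 55.2 TPM and at 76.4 and 78.9 TPM. ATF4 targets were higher in 9 and lower in 1 of 19 (47.4% and 5.26%), and in 6 and 3 without the mitochondrially encoded genes. TRIB3 was at 29.5 and 32.6 TPM and at 46.3 and 49.4 TPM. For INSIG1 and TRIB3 the libraries with roseoflavin were above those without it, by more than trametinib differed within a pair. For the lysosomal and autophagy genes and the NRF2 targets the direction depended on the scaling. The first were higher in 12 and lower in 5 of 25, in 7 and 7 with quantile normalization, and in 7 and 10 without the mitochondrially encoded genes. NRF2 targets were higher in 5 and lower in 0 of 16 (31.2% higher, below the 34.6% over all genes), in 1 and 1 with quantile normalization, and in 1 and 3 without the mitochondrially encoded genes.

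Of 9 mesenchymal markers 5 were lower in both pairs and 0 higher (55.6% and 0%, beside 21% and 34.6% of all measured genes). The collagen genes COL1A1, COL5A1 and COL6A1 and the gene S100A4 went opposite ways. SPARC was at 575 and 522 TPM and at 509 and 482 TPM (-0.14 and -0.08), and MMP2 at 220 and 204 TPM and at 206 and 194 TPM. VIM was lower by 0.05 and 0.03. Among 10 epithelial markers 5 were higher and 4 lower (TJP1, CLDN1, KRT19 and MUC1), and EPCAM went opposite ways. Without the mitochondrially encoded genes 4 were higher and 4 lower. KRT8 was at 915 and 990 TPM and at 852 and 892 TPM, KRT18 at 916 and 989 TPM and at 879 and 920 TPM, and CLDN3 at 23.9 and 26.2 TPM and at 23.7 and 28.8 TPM.

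**Figure D4:**
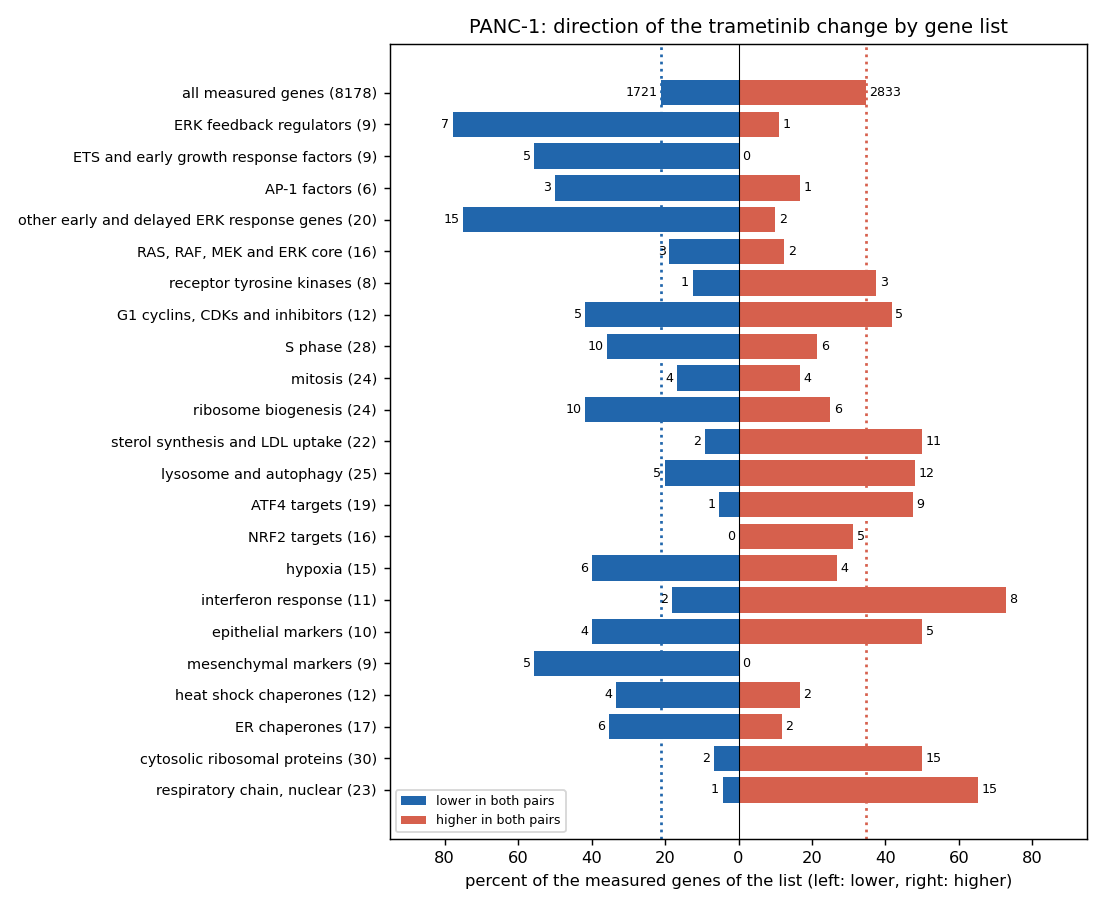
Percent of the measured genes of each list that were lower (left, blue) or higher (right, red) in both PANC-1 pairs, with the number of genes at the end of each bar and dotted lines at the shares over all measured genes (21 and 34.6). The 4 ERK output lists extend to the left, with 7 of 9, 5 of 9, 3 of 6 and 15 of 20 genes lower.

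The rule that chose the genes used no AsPC-1 library, and the AsPC-1 values describe how far the directions were shared. Of the 1721 genes lower in PANC-1, 346 (20.1%) were lower in both AsPC-1 pairs, beside 18.5% of all measured genes. Of the 2833 higher genes, 1080 (38.1%) were higher in both AsPC-1 pairs, beside 40.8% of all. Both shares were near the background, and they stayed near it with quantile normalization (27.4% beside 28.1%, and 30.7% beside 32.5%).

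For the ERK outputs the share was larger. The lists were chosen with earlier results of these data known, so this share is a description and not an independent check. Of the 30 ERK output genes lower in PANC-1, 15 (50%) were lower in both AsPC-1 pairs and 6 higher in both, beside 18.5% lower among all measured genes. The 15 included DUSP6, SPRY2, SPRY4, ERRFI1, EGR1, ETV5, FOSL1, MYC, CCN1, IER3, KLF10, PHLDA1, PLAU and UPP1. Over all 44 measured ERK output genes AsPC-1 was split, with 16 (36.4%) lower in both pairs and 15 (34.1%) higher. Among all measured genes 18.5% were lower and 40.8% higher there. The median AsPC-1 change of the 44 was -0.03 without and 0.05 with roseoflavin. DUSP6 in AsPC-1 was at 193 and 155 TPM and at 176 and 136 TPM (-0.32 and -0.37). Its change there differed from that in PANC-1 by 0.07 in size, which did not pass (limma SE 0.0584, adjusted p 0.709). EGR1 (-0.43 and -0.32) and SPRY4 (-0.37 and -0.30) were likewise lower in AsPC-1. IER3 and PHLDA1 were lower in AsPC-1 by 0.37 to 0.43 and in PANC-1 by 0.04 to 0.14, and the difference between the lines did not pass (limma adjusted p 0.493 for each).

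The 6 of these 30 genes that were higher in both AsPC-1 pairs were SPRY1, ELK1, EMP1, CCN2, CCND1 and MCL1. That is a smaller share than the 44.1% of all 1721 genes lower in PANC-1 that were higher in both AsPC-1 pairs. EMP1, a membrane protein, differed by -0.07 and -0.22 in PANC-1 and by 0.38 and 0.38 in AsPC-1. CCN2 differed by -0.09 and -0.03 in PANC-1 and by 0.37 and 0.27 in AsPC-1. Of the 15 largest decreases, 7 (46.7%) were lower in both AsPC-1 pairs, beside 18.5% of all measured genes. Of the 15 largest increases 3 (20%) were higher in both, beside 40.8%. NT5E and EBPL are examples with the opposite sign in AsPC-1. EBPL was at 38.4 and 34.9 TPM and at 37.8 and 34.2 TPM there (-0.13 and -0.14).

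The difference between the lines was tested with all 8 libraries. None of 19122 genes (0%) passed in limma, and for 1854 (9.7%) the p before adjustment was below 0.05. First in order of p stood SNORD105, MIR3677, MIR641, a Y RNA and a gene without a name, with adjusted p-values of 0.26 to 0.272. Over 7907 RefSeq genes 2 passed (0.0253%), 1 in each direction (0.0126% each), LGALS1 and ALDH1A1. LGALS1, which encodes galectin-1, was higher with trametinib in PANC-1 at 1280 and 1450 TPM and at 1442 and 1544 TPM. In AsPC-1 it was lower, at 103 and 74.2 TPM and at 94.5 and 64.1 TPM. The line difference was 0.65 ± 0.0616 (limma SE), with an adjusted p of 0.0406 over RefSeq genes and 0.493 over all genes. LGALS1 and ALDH1A1 were chosen after their values were seen.

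**Figure D5:**
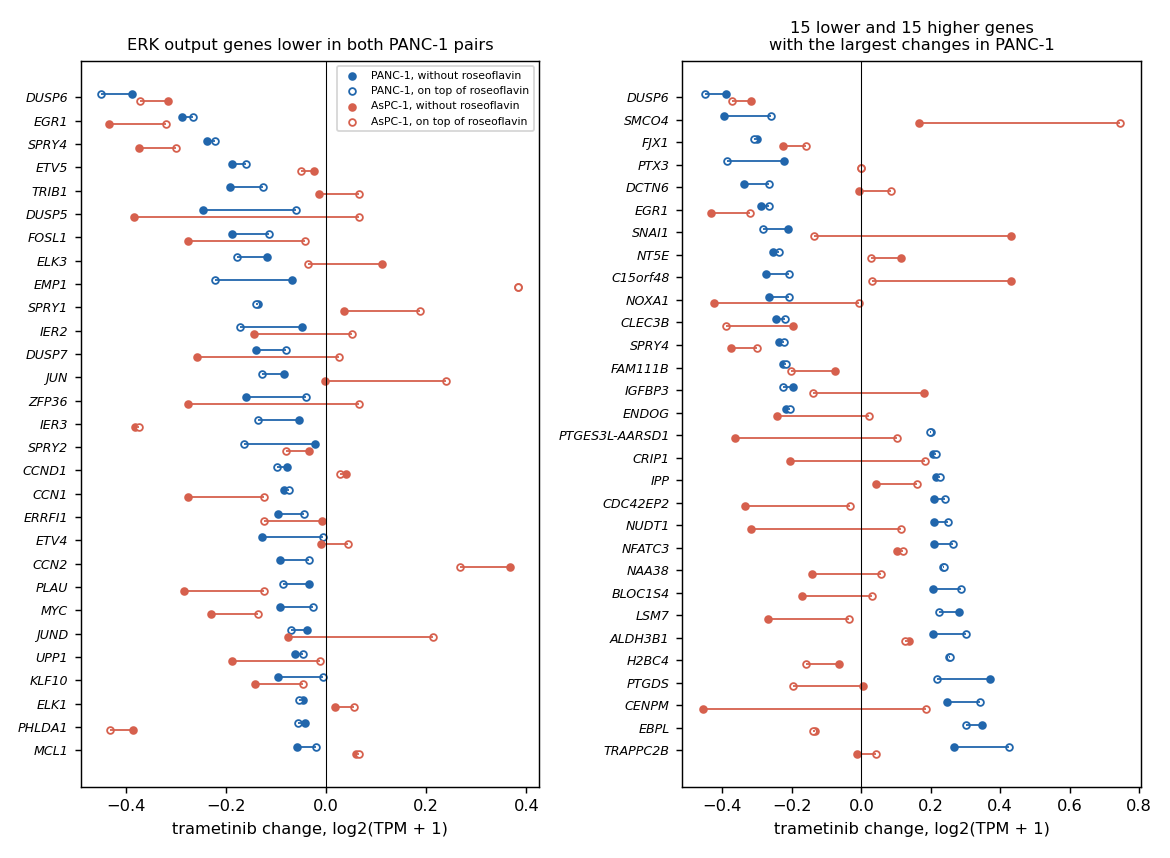
Trametinib change in log2(TPM + 1) in PANC-1 (blue) and AsPC-1 (red), filled points without and open points on top of roseoflavin. Left, ERK output genes lower in both PANC-1 pairs, with DUSP6, EGR1 and SPRY4 lower in both AsPC-1 pairs too; right, the 30 genes with the largest PANC-1 changes, of which 7 lower and 3 higher genes keep their direction in both AsPC-1 pairs.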

How the data were processed

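RNA was measured in 8 libraries, 1 for each treatment of each line, made with a stranded polyA kit per the labels' protocols. The authors deposited TPM per gene; the submitters' processing notes name STAR 2.7.3a, HTSeq 2.0.2 and hg38, without their roles, and the annotation and the step to TPM are not given in the sources used here. The 985926 blank rows were dropped. Values were analysed as log2(TPM + 1), which understates the change of low genes. With 1 library a group, p-values rest on the spread between the 2 pairs of a line, which may be technical. In the RefSeq fit of PANC-1 this spread was in effect pooled over genes of like level, so it is not the gene's own.

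The PANC-1 effect was fitted with limma 3.58.1 in R 4.3.3 (eBayes with trend) on 4 libraries with roseoflavin as an additive term, which pairs the libraries, for genes that reached 1 TPM in at least 2 of them. The line difference used all 8 libraries. Adjusted p-values are Benjamini-Hochberg values with a threshold of 0.05. Alternatives to the RefSeq fit were chosen after seeing the data. An unpaired comparison of 2 against 2 libraries could not give an exact permutation p below 0.333. Genes were named by rule: the 15 largest changes each way by the smaller of the 2 changes, the 5 smallest p of each test, the 3 markers, and list members. The members and the 25 lists were chosen with earlier results of these data known. Lengths are those of the longest coding transcript in GENCODE release 29 (99.9% matched). Promoters matched for 3753 members. Some list genes enter the counts and are not reported here by name.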

Additional observations from a re-analysis of the deposited data

Results flagged for a closer look

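In the following genes both PANC-1 pairs moved one way and both AsPC-1 pairs the other, and the value is the trametinib effect in PANC-1 minus that in AsPC-1 on the log2(TPM + 1) scale. Of all genes lower in PANC-1, 44.1% were higher in both AsPC-1 pairs. The value was negative for SMCO4 (-0.78), NT5E (-0.32) and C15orf48 (-0.47), and for the ERK output genes EMP1 (-0.53), CCN2 (-0.38), SPRY1 (-0.25), CCND1 (-0.12), MCL1 (-0.10) and ELK1 (-0.0876). It was positive for EBPL (0.46), CDC42EP2 (0.41), LSM7 (0.40) and H2BC4 (0.37). None of these 13 differences passed limma over all genes, with adjusted p-values from 0.493 to 0.637. For LGALS1 the difference was 0.65, and it passed in the RefSeq fit only.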

How the results depend on the processing

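The count of genes past the threshold over all genes was 0 and became 105 in the RefSeq fit. It was 79 to 98 when each PANC-1 library was left out, a fit that borrows its spread from AsPC-1 and assumes that the lone library varies like the others; small RNA genes stood first there. It stayed 0 under the other alternatives run. In the RefSeq fit, 105 became 7 with quantile normalization, 37 with genes of at least 2 kb, 0 without the roseoflavin term and 0 with all 8 libraries of both lines in the fit. Leaving out a PANC-1 library is possible only in that fit over both lines, which already gave 0 with all 8 libraries. Leaving out a library there therefore cannot show whether the 105 genes rested on a single library. The cause was not tested. The line difference gave 2 genes in the RefSeq fit.

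Genes higher in both lines numbered 667 with quantile normalization, against 1080, and genes lower in both numbered 619, against 346, beside the shares over all genes in the report. The median of the mean change was -0.05 for the ETS list and -0.0069 to -0.0653 with a library left out. For the AP-1 list it was -0.02, and it was -0.036 with quantile normalization, -0.035 without mitochondrially encoded genes and -0.0486 to -0.0447 with a library left out. For the other ERK response genes it was -0.06, and it was -0.0758 without mitochondrially encoded genes and -0.0613 to -0.0435 with a library left out. Of 781 comparisons for 71 named genes 724 kept their direction and their side of the threshold and 28 passed in the RefSeq fit. The remaining 29 changed sign, in 11 genes such as ELK4, ETS1 and JUNB. In 8 lists outside the ERK outputs the median changed sign under some alternative. The main fit is paired through the roseoflavin term, and the labels give no other replicate number to pair by. TPM give no depth, so low genes cannot be judged by their counts.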
